A study of Mus musculus with 107 samples.

Results

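The 10 genes described here encode 6 keratins (Krt7, Krt8, Krt18, Krt19, Krt5 and Krt14), the epithelial adhesion molecules Epcam and Cdh1, and the mesenchymal pair Cdh2 and Vim. They were taken by gene symbol from a table of 50686 genes, and each symbol matched a single gene. Their transcript levels were followed over 107 subcutaneous mouse tumors from 12 syngeneic models, in which a mouse cancer cell line grows in a host of a matching inbred strain. The study sampled treatment-naïve tumors at about 100 mm3 (35 tumors) and, on day 8 of treatment, non-treated tumors (NT, 36) and tumors given lenvatinib (LEN, 36), an oral inhibitor of VEGF and FGF receptor kinases given by mouth every day for 7 days at a dose of 10 mg/kg. Each model had 3 tumors in each group, apart from MC38, which had 2 treatment-naïve tumors.

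The cells had been implanted under the right flank skin of 7-week-old mice. BNL 1ME A.7R.1 (hepatocellular carcinoma), RAG and Renca (renal cell carcinoma), CT26.WT (colorectal), and 4T1 and EMT6 (breast) grew in BALB/cAnNCrlCrlj mice. MC38 (colorectal) and B16-F10 (melanoma) grew in C57BL/6NCrl mice, LL/2 (lung) in C57BL/6JCrl, KLN205 (lung) in DBA/2NCrl, Hepa 1-6 (hepatocellular carcinoma) in C57L/J and MBT2 (bladder) in C3H/HeNCrl. The RAG cells had been adapted in vivo beforehand. Each model is a single established line, so a difference between models of a tumor type is a difference between lines, and host strain changes with the model for several of them. The study lists male hosts for BNL 1ME A.7R.1 and Hepa 1-6 and female hosts for the others, so host sex changes with the model too.

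Keratins are the intermediate filament proteins of epithelial cells and assemble as obligate pairs of a type II with a type I chain. Krt8 (type II) pairs with Krt18 (type I) in simple, single-layered epithelia such as liver and gut, Krt7 and Krt19 mark ducts and other simple epithelia, and Krt5 with Krt14 forms the filaments of the basal layer of skin and other stratified epithelia. Epcam and the E-cadherin Cdh1 hold epithelial cells together. The N-cadherin Cdh2 and the intermediate filament protein Vim are typical of mesenchymal cells, and loss of the epithelial proteins with gain of the mesenchymal ones is the textbook description of epithelial-mesenchymal transition.

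Levels are given as TPM (transcripts scaled to a fixed total in each tumor), which are also scaled by transcript length and can be compared between genes. TPM keeps no read depth, so the counting error behind a low value is unknown. Lineage genes matched the labels of several models and not of others. Summed melanocyte genes reached 8065 to 9414 TPM in B16-F10 and hepatocyte genes 2873 to 4151 TPM in Hepa 1-6, whereas hepatocyte genes summed to at most 14.1 TPM in BNL 1ME A.7R.1 and urothelial genes to at most 1.15 TPM in MBT2. In 3 LEN tumors a list of 12 skin genes stood more than 10 times above the model's median, and those tumors are returned to beside the basal keratins. All samples are bulk tissue, in which fewer cells of a type and less RNA per cell cannot be told apart.

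Krt8 and Krt18 lie next to each other on chromosome 15 and are read away from each other. In GRCm38 Krt8 spans chr15:101996698-102004482 on the minus strand and Krt18 chr15:102028180-102032027 on the plus strand, with 23697 bases between them. Krt7 (chr15:101411043-101430313, plus) and Krt5 (chr15:101707070-101712898, minus) belong to the same type II cluster. Krt14 (chr11:100203162-100207548, minus) and Krt19 (chr11:100140810-100148665, minus) lie in the type I cluster. Epcam lies at chr17:87635979-87651129 and Cdh1 at chr8:106603351-106670246, and Vim lies at chr2:13573927-13582826, all on the plus strand.

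The promoters of Krt8, Krt18 and Epcam are shown because Krt8 and Krt18 moved together in several models below, and Epcam is set beside them. RefSeq promoter windows (GRCm38.p6) were matched for 7 of the 10 genes. The stretches start 250 bases before the RefSeq transcription start and end at the base before the first annotated transcript, so that no transcribed base is included, and are written 5′ to 3′ on the gene's own strand. Capitals mark an E-box (CAGGTG or its reverse complement CACCTG, the element bound by the Snail and Zeb repressors) or a GC box (GGGCGG or CCGCCC).
Krt8 (chr15:102004483-102004592, minus): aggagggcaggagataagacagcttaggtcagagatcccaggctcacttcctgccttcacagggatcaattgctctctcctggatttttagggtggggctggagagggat
Krt18 (chr15:102027966-102028179, plus): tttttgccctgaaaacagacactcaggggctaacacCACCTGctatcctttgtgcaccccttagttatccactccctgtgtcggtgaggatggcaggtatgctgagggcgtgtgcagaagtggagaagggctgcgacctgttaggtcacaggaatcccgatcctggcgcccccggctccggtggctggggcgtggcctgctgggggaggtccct
Epcam (chr17:87635729-87635978, plus): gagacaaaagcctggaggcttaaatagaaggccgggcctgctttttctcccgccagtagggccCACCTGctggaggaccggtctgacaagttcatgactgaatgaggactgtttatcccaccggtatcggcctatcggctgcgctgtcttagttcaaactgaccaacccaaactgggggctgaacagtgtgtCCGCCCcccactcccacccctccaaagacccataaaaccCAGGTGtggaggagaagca
Over a window of 250 bases before the start, searched on both strands, an E-box was found in 17.1% and a GC box in 32.9% of 27025 promoters. Counted from the end of the printed stretch, Krt18 held an E-box 178 bases upstream and Epcam held E-boxes at 187 and 19 bases and a GC box at 58 bases. Among the 7 matched genes 5 had an E-box in the window, the exceptions being Krt14 and Vim, and the Krt8 E-box lies downstream of the stretch shown. These matches are letters in a window and say nothing of binding.

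All 10 genes differed between the 12 models before treatment (limma, adjusted p at most 1.37e-15 for each gene), but so did 93.6% of the 17542 genes tested. For most members what stood out descriptively was the size of the spread. Model means of log2(TPM + 1) ranged over 9.73 for Krt18, 9.32 for Krt5 and 8.99 for Krt8, and over 4.89 for Cdh1, 4.87 for Cdh2 and 3.33 for Vim, against a median range of 1.76 over 13274 protein-coding genes. At least 99.5% of those genes had a smaller range than each keratin and Epcam. The share was 95.6% for Cdh1, 95.5% for Cdh2 and 83.7% for Vim. The map of treatment-naïve levels shows KLN205, 4T1 and Hepa 1-6 with the most Epcam and Krt7, and MBT2 and B16-F10 with few transcripts of any of the 6 keratins. CT26.WT held under 1 TPM of each of the 6 except Krt18, but its type I keratins together summed to 39.5 to 54.7 TPM, most of it Krt20 (a mean of 39.3 TPM).

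**Figure D1:**
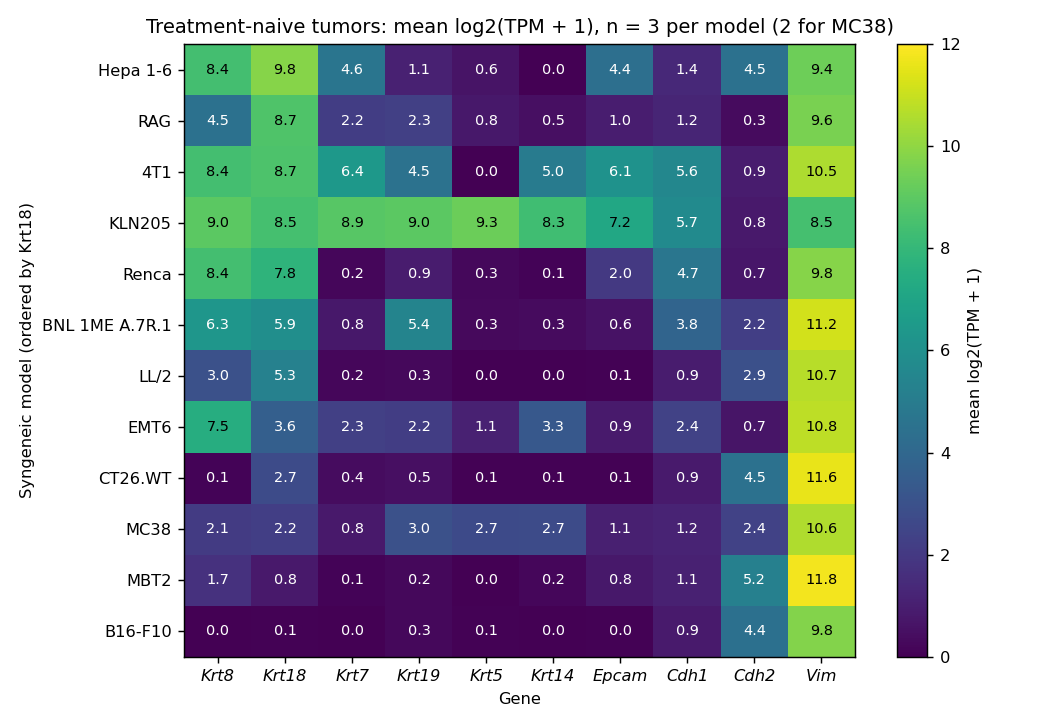
Mean log2(TPM + 1) of each of the 10 genes (columns) in the treatment-naïve tumors of each of the 12 models (rows), with 3 tumors a model and 2 for MC38. KLN205 had the highest Krt7, Krt8, Krt19, Krt5, Krt14, Epcam and Cdh1 means and the lowest Vim mean, and B16-F10 had a Krt8 mean of 0.

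For Krt8, the type II chain of the simple epithelial filament, the treatment-naïve tumors of KLN205 held 404, 617 and 526 TPM. The 4T1 tumors held 271, 418 and 355 TPM, Renca 299, 373 and 360 TPM, and Hepa 1-6 368, 321 and 317 TPM. Neighbours in this order overlapped from KLN205 down to Hepa 1-6. Below them the models separated, from EMT6 at 168, 204 and 168 TPM through BNL 1ME A.7R.1 at 77.3 ± 5.65 TPM (SD, n = 3) to RAG at 21.8 ± 3.54. LL/2 (8.20 ± 6.29) overlapped MC38 (3.29 ± 0.27, n = 2), MBT2 averaged 2.25 TPM and CT26.WT 0.103 TPM, and Krt8 was listed at 0 in all 3 B16-F10 tumors.

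Krt18, its type I partner, had another order. Hepa 1-6 stood first at 898 ± 64.0 TPM (SD, n = 3), above every tumor of RAG (418 ± 65.8), 4T1 (a mean of 410) and KLN205 (356 ± 47.4), which overlapped in turn. Renca followed at 220 ± 19.8, BNL 1ME A.7R.1 at 60.5 ± 12.8, LL/2 at 37.6 ± 4.25 and EMT6 at 13.6, 12.5 and 8.44 TPM, with no overlap between neighbours down to B16-F10 at 0.06 TPM. Over the 12 model means the log2 levels of Krt8 and Krt18 had a Pearson correlation of 0.82, a description of 12 points that share a library protocol and a scaling.

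The balance of the pair differed most in RAG and EMT6. In RAG the treatment-naïve log2 ratio of Krt8 to Krt18 averaged -4.26 ± 0.07 (SD, n = 3), a geometric mean of 19.2 Krt18 transcripts for each Krt8 transcript. In EMT6 it averaged 3.99 ± 0.35, or 15.9 Krt8 transcripts for each Krt18 transcript. In BNL 1ME A.7R.1, Renca and KLN205 the log2 ratio lay between 0.38 and 0.64, in 4T1 it was -0.23 and in Hepa 1-6 -1.42. The RAG and EMT6 ranges lay outside those of every other model in which both genes were expressed. A processed copy listed as Krt8-ps, which could share reads with Krt8, held at most 6.26 TPM in any tumor.

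**Figure D2:**
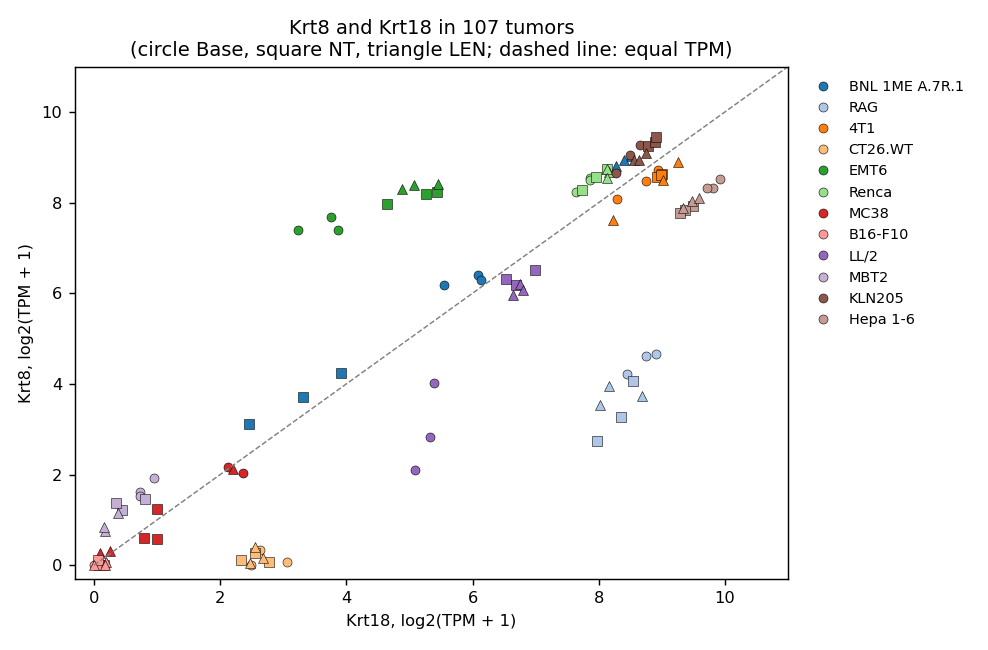
Krt8 (vertical) against Krt18 (horizontal) in each of the 107 tumors, both as log2(TPM + 1), with a point for each tumor and the line of equal levels. RAG lies below the line, EMT6 above it, and the BNL 1ME A.7R.1 tumors run along it from the NT group through the treatment-naïve group to the LEN group.

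Krt7 and Krt19, the ductal keratins, were concentrated in fewer models. Krt7 measured 501, 460 and 467 TPM in KLN205, 78.4, 97.0 and 73.6 TPM in 4T1, and 24.3 ± 5.07 TPM (SD, n = 3) in Hepa 1-6, with gaps between these 3 models and the rest. EMT6 (3.99) and RAG (3.53) overlapped and the remaining 7 models averaged under 1 TPM. Krt19 averaged 512 ± 68.7 TPM in KLN205, 41.8 ± 3.63 in BNL 1ME A.7R.1 and 21.9 ± 2.94 in 4T1, again without overlap, and Hepa 1-6, with the most Krt18, averaged 1.22 TPM.

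Krt5 and Krt14, the basal pair, were high in KLN205 alone. Krt5 measured 864, 467 and 647 TPM and Krt14 370, 256 and 342 TPM in its treatment-naïve tumors, a log2 ratio of 1.00 ± 0.19 (SD, n = 3) that stayed at 1.02 in NT and 0.96 in LEN tumors. In 4T1, Krt14 was present without its partner, at 21.4, 36.3 and 36.8 TPM against at most 0.04 TPM of Krt5. EMT6 held 9.05 ± 2.14 TPM of Krt14, and in 11 models other than KLN205 mean Krt5 was at most 5.71 TPM, in MC38.

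Epcam, a surface glycoprotein of carcinoma cells, followed Krt7. It measured 147, 145 and 151 TPM in KLN205, 50.8, 86.2 and 75.8 TPM in 4T1, 20.0 ± 3.61 TPM (SD, n = 3) in Hepa 1-6 and 3.10 ± 0.93 TPM in Renca, each apart from the next. The remaining 8 models averaged at most 1.10 TPM, among them BNL 1ME A.7R.1 and EMT6, which had Krt8. Over the 12 model means Krt7 and Epcam correlated at 0.95. Cdh1 followed a different set: KLN205 (52.7 ± 2.64) and 4T1 (46.7 ± 10.0) overlapped, Renca (25.6 ± 4.35) and BNL 1ME A.7R.1 (13.7 ± 3.23) came next, and Hepa 1-6 had 1.64 ± 0.59 TPM.

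Cdh2 was highest in MBT2, where the tumors measured 37.0, 33.9 and 37.9 TPM. CT26.WT (21.4 ± 1.36, SD, n = 3), Hepa 1-6 (21.2 ± 0.08) and B16-F10 (20.6 ± 1.23) overlapped below it, LL/2, MC38 and BNL 1ME A.7R.1 lay between 3.64 and 6.58 TPM, and 4T1, KLN205, EMT6, Renca and RAG averaged under 1 TPM. Hepa 1-6 therefore held Cdh2 together with the most Krt18. Across the model means Cdh2 correlated with Krt8 at -0.65 and with Cdh1 at -0.64. A predicted antisense gene inside Cdh2, Gm15485, was listed at no more than 2.85 TPM, and whether counting used strand is not given in the sources used here.

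Vim was abundant in every tumor, with 219 TPM as the lowest of the 107 values, and it is a protein that fibroblasts and other host cells also make. The treatment-naïve means ran from 3572 ± 250 TPM in MBT2 and 3101 ± 354 TPM in CT26.WT, which overlapped, to 357 ± 66.0 TPM in KLN205 (SD, n = 3). B16-F10, a line of melanocytic and not epithelial origin, had 887 ± 31.7 TPM, in the lower part of the range. Across model means Vim correlated with Krt7 at -0.63 and with Epcam at -0.62.

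Lines of the same tumor type were compared with each other before treatment, over 5 pairs. Of 50 gene and pair combinations 38 passed the test, with 17 higher and 21 lower in the line named first. By pair, from 38% to 56% of all genes passed. LL/2 differed from KLN205 in all 10 genes, where 54.9% of all genes differed, with Krt5 lower by a log2 difference of -9.32 ± 0.44 (SE) and Vim higher by 2.23 ± 0.16. BNL 1ME A.7R.1 differed from Hepa 1-6 in 8 genes, where 56% of all genes differed. It had less Krt18 (-3.89 ± 0.18), Krt7 (-3.86 ± 0.20) and Epcam (-3.78 ± 0.24), and more Krt19 (4.31 ± 0.40) and Cdh1 (2.47 ± 0.19).

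Renca against RAG gave 6 of 10 calls (50.3% of all genes), among them Krt8 higher by 3.92 ± 0.27 and Krt18 lower by -0.91 ± 0.18. The call on Krt19, lower in Renca by -1.34, was lost without RAG treatment-naïve replicate 3 (-0.80) and when the pair was fitted alone (adjusted p = 0.0736, limma). Krt8 and Krt18 differed in opposite directions between these renal lines. CT26.WT against MC38 gave 7 calls (48.1%), with Cdh2 higher by 2.11 ± 0.23 and Krt14 lower by -2.66 ± 0.27. The 12 skin genes summed to 2.91 to 6.00 TPM in CT26.WT and to 49.9 and 56.6 TPM in MC38, and their part in the Krt14 difference was not tested. 4T1 against EMT6 gave 7 calls (38% of all genes, 9.38% higher), all higher in 4T1, led by Epcam (5.26 ± 0.24) and Krt18 (5.04 ± 0.18). B16-F10 against the mean of the other 11 models was lower in 9 genes and higher in Cdh2 (68.6% of all genes were called), by 2.15 ± 0.15. Rescaling moved the share of all called genes that were higher, to the upper quartile from 38% to 50% for the hepatocellular pair, from 73.2% to 53.3% for the renal pair, from 60.8% to 40.4% for the lung pair and from 24.7% to 50.5% for the breast pair, and over protein-coding genes from 53.5% to 38.5% for B16-F10. No called member changed direction under either rescaling.

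On day 8 LEN tumors were compared with NT tumors to ask what the drug changed. The largest shift of these genes was in BNL 1ME A.7R.1. Krt8 measured 17.9, 12.2 and 7.67 TPM in the NT tumors and 520, 444 and 492 TPM in the LEN tumors, 38.6 times higher by mean TPM. Krt18 measured 14.1, 8.91 and 4.48 TPM against 365, 309 and 335 TPM, and Krt19 8.88, 5.45 and 2.37 TPM against 263, 238 and 279 TPM. The groups were far apart for all 3 genes, and the ratio of Krt8 to Krt18 stayed level, at a log2 value of 0.52 in NT and 0.53 in LEN tumors.

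Cdh1 in the same model measured 4.88, 4.57 and 3.38 TPM in NT tumors and 107, 78.0 and 94.1 TPM in LEN tumors, 21.8 times higher. The LEN tumors of BNL 1ME A.7R.1 held more Cdh1 than any other group of the study, KLN205 and 4T1 included. Cdh2, its mesenchymal counterpart, measured 1.80, 1.94 and 1.41 TPM against 14.5, 12.3 and 13.6 TPM, so that both cadherins were higher. Vim measured 2434, 2727 and 2333 TPM against 2359, 2534 and 2328 TPM, with overlapping groups, and Epcam did not exceed 0.52 TPM in any of the 6 tumors.

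In limma, fitted on the 6 day 8 tumors of this model, 7 of the 8 members with enough signal to be tested were higher in LEN, where 26.3% of 17009 genes were called higher and 31.5% called in either direction. The log2 differences were 5.44 ± 0.35 (SE) for Krt19, 5.23 ± 0.26 for Krt8, 5.17 ± 0.33 for Krt18, 4.16 ± 0.15 for Cdh1, 2.41 ± 0.12 for Cdh2 and 1.36 ± 0.18 for Krt7, each with an adjusted p of at most 0.00184. Krt7, at 0.56 to 0.93 TPM in NT and 2.91 to 4.10 TPM in LEN tumors, and Krt14 averaged under 1 TPM in NT tumors and so met the minimum of 1 TPM through the LEN tumors alone, and the same 7 genes passed with no minimum. By size of change Krt19, Krt8 and Krt18 ranked 11, 16 and 20 of the 17009 genes. Krt14, listed at 0 in the 3 NT tumors and at 0.59, 1.98 and 3.80 TPM in the LEN tumors, passed at an adjusted p of 0.0289 and was lost when an NT tumor was left out and in a joint limma fit of all day 8 tumors (adjusted p = 0.12). Vim was not called, and Krt5 and Epcam were too low to test. The scaling matters to all genes of this comparison: the median log2 difference was 0.17 with the deposited TPM and -0.01 after rescaling to the upper quartile, the share of calls that were higher fell from 83.5% to 53.7%, and Krt8 was then higher by 5.02, Krt19 by 5.23 and Cdh1 by 3.94.

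**Figure D3:**
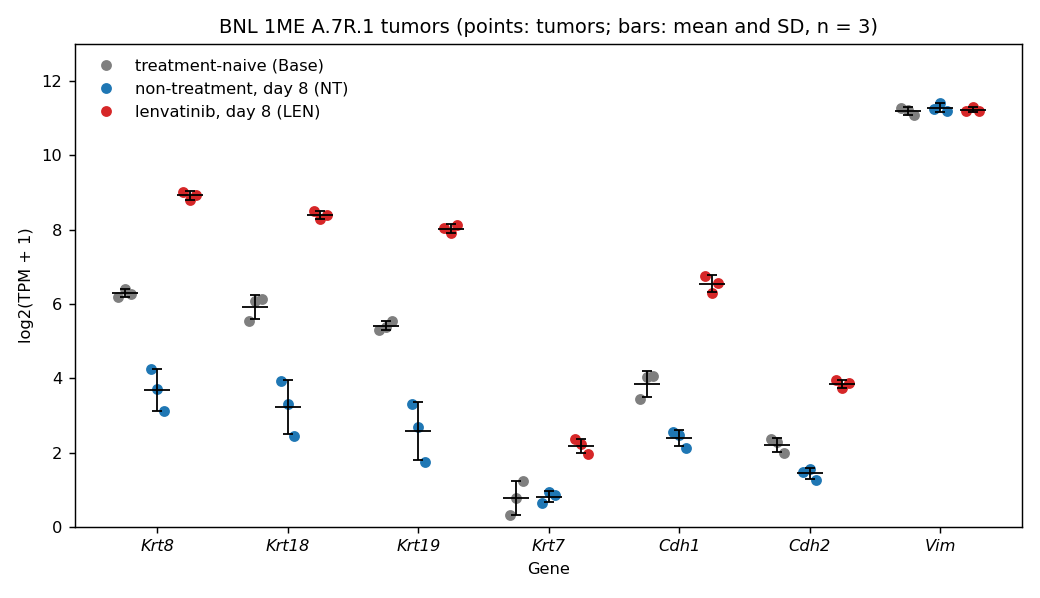
Levels of 7 genes, as log2(TPM + 1), in each BNL 1ME A.7R.1 tumor, with 3 points for each of the treatment-naïve, NT and LEN groups and bars for the mean and SD. Krt8, Krt18, Krt19, Cdh1 and Cdh2 are lowest in NT and highest in LEN tumors without overlap, Krt7 is highest in LEN tumors, and Vim, at 2159 to 2727 TPM, is level in all 9 tumors.

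The treatment-naïve tumors of this model lay between the 2 day 8 groups. Krt8 measured 71.9, 83.2 and 76.8 TPM, Krt18 45.7, 66.7 and 69.0 TPM, Krt19 38.7, 40.8 and 45.8 TPM and Cdh1 9.94, 15.4 and 15.7 TPM. By mean TPM the LEN tumors exceeded them 6.28 times for Krt8, 5.56 times for Krt18, 6.22 times for Krt19 and 6.82 times for Cdh1. Vim was level throughout.

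Other transcripts moved with these groups. Summed over a list of 7 skeletal muscle genes, the tumors held 315 to 709 TPM before treatment, 40.5 to 126 in NT and 1734 to 2478 in LEN tumors, the same order as the keratins, and all 7 genes passed the test as higher in LEN. Fibroblast genes summed to 8244 to 9332 TPM in NT and 6694 to 7634 TPM in LEN tumors, and endothelial genes to 111 to 130 and 40.2 to 46.4 TPM. The 12 skin genes summed to 4.00 to 4.49 TPM before treatment, 3.67 to 5.30 in NT and 6.84 to 8.64 in LEN tumors. Protein-coding genes held 45.3% to 49.0% of TPM before treatment, 54.3% to 57.4% in NT and 60.2% to 61.9% in LEN tumors. The part of these movements in the keratin and cadherin values was not tested.

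The wider epithelial program was read from lists of related genes. Several of these genes reached the minimum of 1 TPM in BNL 1ME A.7R.1 through the LEN tumors alone, so the lists were counted with no minimum, where 15.7% of all genes were called higher in LEN. Of 9 keratins outside the members in that fit 3 were then higher and none lower. Of 20 junction genes 9 were higher and none lower, and of 15 epithelial regulators 6 were higher and none lower. The keratins Krt17, Krt6a, Krt4 and Krt15 averaged under 1 TPM in both groups, as did the junction genes Cldn3, Cldn4, Cldn7 and Dsg2 and the regulators St14, Esrp1, Grhl2 and Ovol2. Of the keratins that were higher, Krt20 (a mean of 0.413 TPM in NT and 14.7 TPM in LEN tumors) rose by 3.42 on the log2 scale, Krt23 by 1.77 and Krt80 by 1.17. Dsp, the desmoplakin that anchors keratin filaments at desmosomes, was higher by 3.87, the tight junction gene Cgn by 3.22, the protease inhibitor Spint2 by 4.34 and the epithelial transcription factors Elf3 and Ehf by 4.08 and 3.81. Of 8 genes of the cadherin complex 6 were higher too, by at most 0.79 for Afdn. Of 9 non-keratin intermediate filament genes 4 were higher, led by the muscle filament Des at 4.40. With no minimum the median log2 difference was 0.50 over the junction list and 0.19 over the regulators, against 0.10 over all genes.

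Among the other models, Vim rose under LEN in B16-F10 and Renca. In B16-F10 it measured 897, 921 and 905 TPM in NT and 1538, 1734 and 1740 TPM in LEN tumors, a log2 difference of 0.88 ± 0.06 (SE, adjusted p = 0.0017), where 11% of genes were called and 8.57% called higher. In Renca it measured 911, 817 and 901 TPM against 1351, 1345 and 1464 TPM, a log2 difference of 0.66 ± 0.08 (adjusted p = 0.00315), where 12.1% were called and 4.91% called higher. Fibroblast genes summed to 133 to 162 TPM in NT and 471 to 625 TPM in LEN tumors of B16-F10, and macrophage genes to 62.2 to 93.3 and 208 to 293 TPM. In Renca fibroblast genes summed to 379 to 781 TPM in NT and 197 to 420 TPM in LEN tumors, which overlapped, and macrophage genes to 675 to 763 and 352 to 378 TPM, which were lower in LEN. Their part in the Vim values was not tested. Neither pair of Vim groups overlapped, and Cdh2 in Renca stayed at or under 0.41 TPM. Krt19 rose in Renca as well, from 0.19, 0.50 and 0.22 TPM to 1.56, 1.68 and 2.26 TPM (log2 difference 1.12 ± 0.19, adjusted p = 0.0112). It met the minimum of 1 TPM through the LEN tumors alone, and with no minimum its adjusted p in limma was 0.0141. The 12 skin genes in Renca summed to 3.09 to 5.67 TPM in NT and 10.2 to 12.1 TPM in LEN tumors, and their part was not tested. The share of called genes that were higher moved from 40.7% to 54.8% in Renca after rescaling to the upper quartile and from 78% to 55.7% in B16-F10 after rescaling over protein-coding genes, and these 3 calls held under both.

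In the remaining 9 models 0 of 61 tests passed with limma. At an unadjusted p under 0.05 there were 12, where 13.5% of the tests of all genes in these models reached it. A joint limma fit of all day 8 tumors called 3 of the 12, where it called 4.91% of the tests of all genes, Krt7 in RAG and Vim in KLN205 (both lower) and Vim in Hepa 1-6 (higher). In these 9 models few genes of any kind were called, 0.916% in EMT6, 0.228% in KLN205, 0.148% in LL/2, 0.0664% in Hepa 1-6, 0.0326% in RAG, 0.0314% in MC38, 0.0195% in MBT2, 0.0127% in 4T1 and 0.00659% in CT26.WT. Vim measured 419, 491 and 568 TPM in NT and 320, 281 and 219 TPM in LEN tumors of KLN205, the opposite order to Hepa 1-6, which went from 382, 396 and 480 TPM to 724, 709 and 569 TPM. Fibroblast genes summed to 1526 to 2592 TPM in NT and 2740 to 3203 TPM in LEN tumors of Hepa 1-6, and to 1602 to 2563 and 1028 to 2053 TPM in KLN205, where the groups overlapped. Macrophage genes in KLN205 summed to 435 to 495 TPM in NT and 249 to 321 TPM in LEN tumors, and the part of either list in the Vim values was not tested. In KLN205 Krt19 was higher in every LEN tumor (797, 885 and 712 against 607, 646 and 560 TPM) and Krt8 lower in every LEN tumor (546, 489 and 491 against 606, 645 and 699 TPM), without passing the adjusted threshold. Krt7 and Cdh1 were likewise higher, and Krt18 and Vim lower, in every LEN tumor of KLN205. The share of all genes that separated in this way in KLN205 was not counted.

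**Figure D4:**
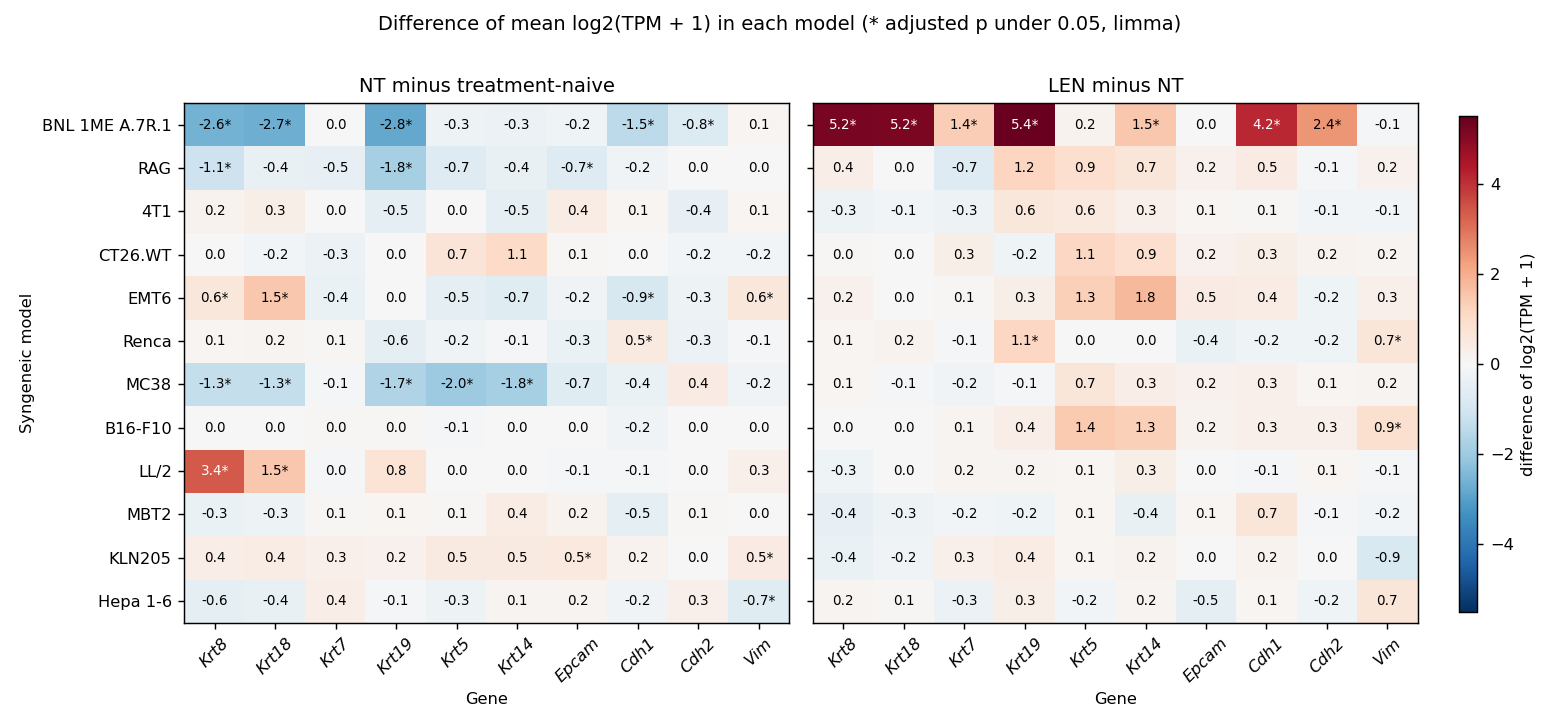
Log2 differences of the 10 genes (columns) in the 12 models (rows), for NT minus treatment-naïve tumors on the left and LEN minus NT tumors on the right, with an asterisk where the adjusted p was under 0.05. Genes averaging under 1 TPM over a model's day 8 tumors are shown on the right but were not tested there. BNL 1ME A.7R.1 is lower on the left and higher on the right for Krt8, Krt18, Krt19, Cdh1 and Cdh2, and both panels use the same NT tumors.

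Averaged over the 12 models, 7 of the 10 members were higher in LEN and none lower, where 13.7% of 17351 genes were called higher and 23.5% called at all. The log2 differences were 0.78 ± 0.11 (SE) for Krt19, 0.59 ± 0.21 for Krt14, 0.55 ± 0.06 for Cdh1, 0.41 ± 0.08 for Krt8, 0.40 ± 0.08 for Krt18, 0.18 ± 0.04 for Cdh2 and 0.14 ± 0.04 for Vim. Krt7 (0.05 ± 0.05), Epcam (0.06 ± 0.06) and Krt5 (0.54 ± 0.24) were not called. Without BNL 1ME A.7R.1 3 members were called, Krt19 at 0.35, Cdh1 at 0.23 and Vim at 0.16, and Krt8 (-0.02), Krt18 (-0.04), Krt7 (-0.07) and Cdh2 (-0.02) changed sign. Krt14 then stood at 0.51 and was not called, and it also lost its call without EMT6 (0.48) or B16-F10 (0.53). With a pseudocount of 0.1 in place of 1, Krt18 (0.30) and Cdh2 (0.06) lost their calls, and with no minimum Krt14 did (adjusted p = 0.0531, limma). The call on Vim was in turn lost without Renca, B16-F10 or Hepa 1-6.

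The response differed between models for 7 members, by a limma test of the difference itself (35.3% of all genes), with an F of 32.1 for Krt8, 31.7 for Cdh1 and 28.9 for Krt18. Without BNL 1ME A.7R.1 that test called 1 member, Vim, and 20% of all genes. Counted over the 12 models, the mean was higher in LEN in 11 for Krt5 and Krt14, in 10 for Cdh1, in 9 for Krt19 and Epcam, in 7 for Krt8, Krt18 and Vim, in 6 for Krt7 and in 5 for Cdh2. Of all genes 1.68% were higher in at least 11 models, 12.3% in at least 9 and 37.3% in at least 7. These counts include models near the floor: a group mean reached 1 TPM in 6 models for Krt5 and Epcam and in 7 for Krt14. All LEN tumors stood above all NT tumors in 1 model for Krt5, 1 for Epcam and 2 for Krt14. They stood below in 0 models for Krt5, 1 for Krt14 (MBT2) and 2 for Epcam (Renca and Hepa 1-6). Every LEN tumor exceeded every NT tumor for Krt19 in 6 models (BNL 1ME A.7R.1, RAG, 4T1, Renca, B16-F10 and KLN205), the highest such count among the members and one that 1.58% of all genes reached or passed, and in B16-F10 that meant 0.47 to 0.67 against 0.17 to 0.39 TPM. Over the mean of the models, 11 of 19 junction genes and 8 of 15 epithelial regulators were higher in LEN and none lower, where 13.7% of all genes were called higher, with medians of 0.13 and 0.13 against a median near 0 over all genes. Without BNL 1ME A.7R.1 4 junction genes and 6 regulators were higher and none lower, where 8.36% of all genes were called higher, with medians of 0.12 and 0.13 against -0.02. The other lists were counted over the mean of the 12 models, with 2 of 9 other keratins and 1 of 7 cadherin complex genes higher and none lower, and 4 of 6 non-keratin filament genes higher and 1 lower. Without BNL 1ME A.7R.1 these were 1 keratin higher, 1 cadherin complex gene higher and 1 lower, and 3 filament genes higher and 1 lower. After rescaling to the upper quartile 41.9% of all called genes were higher in LEN, against 58.1% with the deposited TPM, and no member changed direction.

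The basal keratins stood high in single tumors, most of all in the LEN group. Krt14 did not exceed 10.8 TPM in any day 8 tumor outside KLN205, 4T1 and 3 LEN tumors. Those were EMT6 LEN replicate 4, with 101 TPM against 10.8 and 7.10 TPM in the other LEN tumors, CT26.WT LEN replicate 2, with 22.2 TPM, and B16-F10 LEN replicate 2, with 11.9 TPM. Krt5 was 44.7, 23.9 and 12.3 TPM in these tumors. Single untreated tumors stood apart at lower levels, CT26.WT NT replicate 1 with 3.91 TPM of Krt5 and 9.03 TPM of Krt14 and EMT6 treatment-naïve replicate 1 with 7.35 TPM of Krt5 against 0.07 and 0.12 TPM, with skin genes at 10.4 and 2.23 TPM. In the 3 LEN tumors of EMT6, CT26.WT and B16-F10 the summed skin genes stood at 92.6, 80.3 and 124 TPM, against model medians of 3.42, 4.28 and 5.04 TPM. Without the 3 tumors the mean difference was 0.29 for Krt14 (adjusted p = 0.097) and 0.18 for Krt5, neither called.

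**Figure D5:**
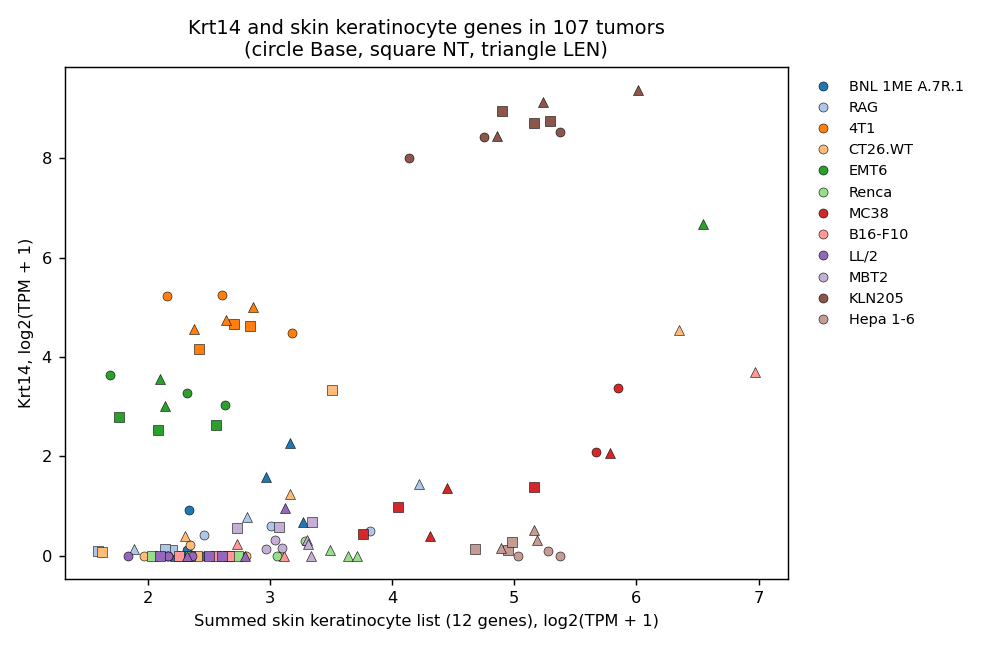
Krt14 (vertical) against the summed TPM of 12 skin genes (horizontal) in each of the 107 tumors, both on log2(TPM + 1) axes. The 3 LEN tumors of EMT6, CT26.WT and B16-F10 lie to the right of their models at 80.3 to 124 TPM of skin genes, and KLN205 and 4T1 hold Krt14 in all their tumors.

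Day 8 NT tumors were also compared with treatment-naïve tumors, both groups being untreated. Time and collection cannot be told apart in this comparison, so words such as fell or rose below describe differences between groups. Both this comparison and the last one use the NT tumors, so a low NT value moves them in opposite directions. Over the mean of the models 2 of 10 members were called, Krt19 (-0.53 ± 0.10) and Cdh1 (-0.26 ± 0.05), both lower in NT, where 28.5% of 17428 genes were called and 11.5% called lower. Of all called genes 59.7% were higher in NT with the deposited TPM, 28.8% after rescaling to the upper quartile and 23% after rescaling over protein-coding genes. The change differed between models for 9 members, all but Krt7, where 66.5% of all genes differed. Of these, the call on Krt5 (F of 2.26) was lost with a pseudocount of 0.1, with no expression minimum, under both rescalings, when any 1 of 10 tumors was left out and without RAG or MC38 (adjusted p = 0.523 in limma without MC38). The call on Krt14 was lost without MC38 and that on Cdh2 with a pseudocount of 0.1 or without BNL 1ME A.7R.1, whereas Krt7 gained a call under both rescalings, when any 1 of 11 tumors was left out and without any 1 of 5 models. The tests within models that follow were added after values had been seen, and called 23 of 120 combinations, 8 higher and 15 lower in NT. The 1 TPM minimum was set over all tumors of this fit, so members near 0 in a model were still tested there. Krt5 and Krt14 in LL/2, listed at 0 in all tumors of both groups, could not pass. Shares over all genes are given by model. Rescaling to the upper quartile moved the share of all called genes that were higher from 80.7% to 46.8% in BNL 1ME A.7R.1, from 86.2% to 37.1% in RAG, from 64.9% to 23.3% in EMT6, from 71.3% to 60.9% in LL/2, from 10.4% to 36.8% in Renca and from 5.20% to 44.3% in Hepa 1-6. Rescaling over protein-coding genes moved it from 51.1% to 23.7% in MC38. No member was called in 4T1, CT26.WT, B16-F10 or MBT2, where 14.7%, 6.79%, 2.12% and 0.333% of all genes were. With limma 4 of those 40 combinations had an unadjusted p under 0.05. The share of all genes at that threshold was not counted, so nothing is read from the 4.

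In BNL 1ME A.7R.1 (27.9% of genes called, 5.36% called lower) 5 members fell, Krt19 by 2.83, Krt18 by 2.69, Krt8 by 2.60, Cdh1 by 1.46 and Cdh2 by 0.77 on the log2 scale. The level of each in the NT tumors is given above and lies below every treatment-naïve tumor. Fibroblast genes in those NT tumors summed to 8244 to 9332 TPM against 4476 to 4744 TPM before treatment, and macrophage genes to 832 to 864 against 290 to 456 TPM. Of 19 junction genes 5 were lower and 1 higher, with Dsp at -1.31 and Jup at 0.93, and of 15 epithelial regulators 3 were lower and 1 higher. The share of the stromal genes in this fall was not tested.

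In LL/2 the simple keratins rose instead. Krt8 measured 3.27, 15.3 and 6.05 TPM before treatment and 78.1, 89.7 and 71.8 TPM in NT tumors (log2 difference 3.35 ± 0.26, SE, where 13% of genes were called and 9.27% called higher). Krt18 measured 32.9, 41.1 and 38.9 TPM against 91.3, 126 and 102 TPM (1.47 ± 0.21). The groups did not overlap, Krt8 gained more than Krt18, and the log2 ratio of Krt8 to Krt18 went from -2.48 ± 0.97 to -0.41 ± 0.16 (SD, n = 3). LEN tumors of LL/2 kept the higher level, at 61.4, 72.6 and 65.9 TPM of Krt8. Endothelial genes were lower in the NT tumors for 4 of 6 listed genes and macrophage genes for 3 of 7, and their part was not tested.

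EMT6 (33.3% of genes called) gained Krt18, from 13.6, 12.5 and 8.44 TPM to 37.4, 42.3 and 23.9 TPM (1.49 ± 0.21), and lost Cdh1, from 3.28, 4.31 and 5.14 TPM to 1.66, 1.98 and 1.70 TPM (-0.90 ± 0.16). Krt8 was called higher there as well (0.64 ± 0.26, adjusted p = 0.0482) and so was Vim (0.60 ± 0.15), but Vim lost its call under both rescalings and Krt8 in 10 alternatives. In RAG (4.85% called, 0.671% lower) Krt8 fell by 1.14, Krt19 by 1.82 and Epcam by 0.69. The 12 skin genes in RAG summed to 4.52 to 13.1 TPM before treatment and 2.01 to 3.59 TPM in NT tumors, and their part was not tested. In Renca (11.5% called, 1.19% higher) Cdh1 rose by 0.50. Fibroblast genes in Renca summed to 1625 to 2509 TPM before treatment and 379 to 781 TPM in NT tumors, and macrophage genes to 906 to 1007 and 675 to 763 TPM, and their part was not tested. The call on Krt8 in RAG was lost without NT replicate 1 and that on Epcam without any of 5 of the 6 tumors, and the call on Cdh1 in Renca without any of 4. In KLN205 (31% called, 30.5% higher) Epcam measured 147, 145 and 151 TPM before treatment and 196, 222 and 225 TPM in NT tumors (0.53 ± 0.19), where the share of called genes that were higher was 98.4% with the deposited TPM and 52.4% after rescaling to the upper quartile, which ended the call. Vim in KLN205 (0.47 ± 0.15) lost its call in the same way. In Hepa 1-6 (20.6% called, 19.6% lower) Vim fell by 0.66, beside macrophage genes at 786 to 1143 TPM before treatment and 354 to 646 TPM in NT tumors, whose part was not tested.

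MC38 (0.809% of genes called, 0.396% lower) had 5 calls, Krt5 falling by 1.98, Krt14 by 1.81, Krt19 by 1.65, Krt18 by 1.31 and Krt8 by 1.30. Krt19 measured 4.04 and 11.02 TPM in the 2 treatment-naïve tumors and 0.99, 1.60 and 1.93 TPM in NT tumors, and Krt8 3.48 and 3.10 against 0.51, 0.49 and 1.36 TPM. The levels are low, and 4 of the 5 calls were lost without NT replicate 3. All 5 were lost without treatment-naïve replicate 3, which leaves 1 treatment-naïve tumor that is assumed to vary like the other groups. Epcam measured 1.02 and 1.17 TPM before treatment and 0.23 to 0.43 TPM in NT tumors, a log2 difference of -0.68 that was not called (adjusted p = 0.0999, limma). The 12 skin genes summed to 49.9 and 56.6 TPM in the treatment-naïve tumors, 34.8, 12.6 and 15.5 TPM in NT tumors and 18.8, 20.9 and 54.0 TPM in LEN tumors, and their part was not tested. In the LEN group the simple keratins stood apart in a single tumor, replicate 5, with 3.33 TPM of Krt8, 3.61 of Krt18, 7.97 of Krt19 and 1.86 of Epcam, while the other LEN tumors held at most 0.24 TPM of each.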

How the data were processed

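RNA sequencing of 107 tumors was analysed from the deposited table of 50686 genes, in which the authors gave each tumor a column of TPM. According to the study's methods and the submitters' processing notes, ribosomal RNA was depleted, reads were trimmed with Trimmomatic 0.36, mapped to mm10 (GRCm38, Ensembl release 88) with STAR 2.5.2b, and quantified with RSEM 1.2.31. Sequencing used 2 instrument types, and which tumor was run on which, and whether counting used strand, are not given in the sources used here. Every column sums to the same total, so depth cannot be read from it. All per-sample columns were used.

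Groups followed the sample labels. The 10 genes were found by symbol, and positions were read from GENCODE M21. Values were taken as log2(TPM + 1), on which fold changes of low genes are understated, genes with a mean of at least 1 TPM over the fitted tumors were kept, and limma 3.58.1 (R 4.3.3, empirical Bayes with a mean-variance trend) was fitted across all kept genes with Benjamini-Hochberg adjustment over them and a threshold of 0.05. All tests are two-sided. The LEN difference within a model was fitted on that model's day 8 tumors, its mean and its difference between models on all day 8 tumors, the treatment-naïve comparisons on the 35 treatment-naïve tumors, and NT against treatment-naïve on the tumors of both groups. Tests used pseudocounts, expression minimums, rescaling to the upper quartile or over protein-coding genes, a replicate block, and leaving out each tumor or model as alternatives. Scripts were tested on simulated data (Python 3.11.15, pandas 2.3.3).

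The labels give each tumor as a separate sample and do not say that each came from another mouse, so p-values measure the spread between these samples. The members and lists were chosen with earlier results of these data known. Genes were named by 3 rules, namely all 10 members, the 3 genes of each list with the largest called change, and the 3 genes most correlated with each member over the models. The last of these is not reported here for Epcam and Cdh2.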

Additional observations from a re-analysis of the deposited data

Results flagged for a closer look

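The LEN minus NT difference was not the same in all 12 models for 7 genes, by a limma F test of the difference between models. The F values were 32.1 for Krt8, 31.7 for Cdh1, 28.9 for Krt18, 28.3 for Cdh2, 16.8 for Krt19, 12.3 for Vim and 7.16 for Krt7. Per model the Krt8 difference ran from -0.43 in MBT2 to 5.23 in BNL 1ME A.7R.1, and the Vim difference from -0.85 in KLN205 to 0.88 in B16-F10. Without BNL 1ME A.7R.1, 1 of these 7 genes, Vim, was still called.

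The NT minus treatment-naïve difference was not the same in all models for 9 genes, by the same test. The F values were 29.9 for Krt8, 27.9 for Krt18, 10.4 for Cdh1, 9.03 for Krt19, 4.89 for Vim, 4.06 for Epcam, 3.47 for Cdh2, 3.29 for Krt14 and 2.26 for Krt5. The calls on Krt5, Krt14 and Cdh2 were lost in some alternatives, that on Krt5 when any 1 of 10 tumors was left out and without MC38 (adjusted p = 0.523, limma), and Krt7 gained a call under both rescalings, when any 1 of 11 tumors was left out and without any 1 of 5 models. Per model the Krt8 difference ran from -2.60 in BNL 1ME A.7R.1 to 3.35 in LL/2, and the Krt18 difference from -2.69 in BNL 1ME A.7R.1 to 1.49 in EMT6.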

How the results depend on the processing

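Over 6480 alternative values for single genes, 6339 kept their direction and their side of the threshold, 91 lost a call, 36 gained a call and 14 reversed. Over all alternatives the number of members called for LEN minus NT averaged over models ranged from 3 to 8, for its difference between models from 1 to 8, and the number of combinations called within models from 8 to 14. The number of members called for NT minus treatment-naïve tumors averaged over models ranged from 2 to 4. The treatment-naïve difference between models called all 10 members under each alternative tried.

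Without BNL 1ME A.7R.1, LEN minus NT called 3 members and its difference between models 1, and Krt8 (-0.0246), Krt18 (-0.0364), Krt7 (-0.0667) and Cdh2 (-0.0218) reversed. For NT minus treatment-naïve tumors 4 members were called after rescaling over protein-coding genes, 4 without CT26.WT and 4 without LL/2, and 2 to 4 when a tumor was left out. There Krt8 and Krt18 reversed without BNL 1ME A.7R.1 (0.123 and 0.115), Krt8 (0.0045) and Krt14 (0.0076) without MC38, Krt7 without RAG (0.0094) and without EMT6 (0.0024), and Vim after rescaling to the upper quartile (-0.0149) or over protein-coding genes (-0.0254), without EMT6 (-0.0124) and without KLN205 (-7.51e-05). None of the values that reversed in this comparison was called. The cause of these changes was not tested beyond the model left out. Leaving out a model in the tests of difference between models, leaving out the 3 tumors high in skin genes, and counting the lists of related genes with no minimum or without BNL 1ME A.7R.1, were alternatives chosen after seeing the data.

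Tumors of different groups share replicate numbers. Over 20 pairs of same-numbered NT and LEN tumors the correlation between deviations from the group means ran from -0.076 to 0.076, and over 25 pairs of treatment-naïve and NT tumors from -0.143 to 0.103, exceeding 0.1 in 1 pair, so the numbers were not taken to pair tumors. With the replicate block 7 members were called for LEN minus NT averaged over models, as without it, and Krt8 in EMT6 for NT minus treatment-naïve tumors lost its call (adjusted p = 0.0509, limma).

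TPM keeps no depth, and a log2 difference at levels near 1 TPM rests on the pseudocount.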

Other observations

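The 3 genes whose treatment-naïve model means correlated most with a member were read over the 12 models, as a description of points that share a scaling. Krt8 was closest to Igfbp7 (r = 0.961), Podxl and Srpx2, and Krt18 to Podxl (0.929), F11r and Itga3. Krt7 was closest to Spint1 (0.961), St14 and Epcam. Krt5 was closest to Calcb (0.989), Krt6a and Ltf, Krt14 to Large2 (0.959), Prss8 and Lypd3, and Krt19 to Pkp1 (0.923), Shroom4 and Il17re. Cdh1 was closest to Moxd1 (0.936), Krtcap3 and Fbn2. Vim was closest to Ano8 (0.946), Sms and Ccdc88a.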
